A study of Rattus norvegicus with 138 samples.

Results

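This comparison set VML-injured tibialis anterior (TA) muscle of the rat against uninjured contralateral TA muscle at 28 days post injury (DPI), over both repair arms of the study, in rats that did not run. Its members were taken from the labels: injured muscles labelled VML, NoRun and day 28 with a repair of NoRepair or MMG, and contralateral muscles labelled NoVML with the same other labels. The rule found 12 libraries (8.7% of the libraries of the series), 8 from injured muscles and 4 from contralateral muscles, and each library stood for 1 muscle. A minimum of 7000 symbols above 1 TPM (a level of transcripts scaled to their length and to the total of the library) removed none of them.

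The study followed the transcriptome of TA muscle after volumetric muscle loss (VML), with and without repair, and the question here was how the injured muscle still differed from the uninjured muscle of the other leg 4 weeks later. All rats were inbred Lewis rats, described in the study's methods as male and about 4 months old. Under anesthesia a biopsy punch removed a full-thickness piece from the middle of the TA of a single leg. In the NoRepair arm (rats 73, 74, 81 and 82) the defect was left empty, and in the MMG arm (rats 75, 76, 83 and 84) it was filled with an autologous minced muscle graft, the excised tissue of the same muscle cut into small pieces. Contralateral muscles came from rats 73 and 74 of the NoRepair arm and rats 75 and 76 of the MMG arm. They were uninjured, but their rats had been operated on, so they were not muscles of untouched animals. Whole TA was homogenized, so the defect, its border and the surviving muscle were read together, and in such bulk tissue fewer cells of a type cannot be told apart from less RNA per cell.

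Skeletal muscle rebuilds its fibres from satellite cells, which divide, express the myogenic regulators Myf5, Myod1 and Myog in turn, fuse, and pass through embryonic and neonatal isoforms of the contractile proteins before the adult ones return. Macrophages and fibro-adipogenic progenitors accompany this process by clearing debris and laying down a transient matrix. VML takes away the fibres together with their basement membranes and stem cells, and it is known for persistent inflammation, fibrous scar and loss of strength. Fibres that have lost their nerve return to a program of early development, in which acetylcholine receptor subunits are made along the fibre and not at the synapse alone.

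The libraries of both groups were those of muscle, and they differed as wholes. The deposited values are TPM without read counts, and the study's methods state an average depth over its libraries, so the reads behind a single value are unknown and the number of muscles limits the precision. The summed TPM of 6 fibre markers (Acta1, Ckm, Myh4, Tnnt3, Mylpf and Pvalb) was 187830.0 to 193710.0 TPM in contralateral muscle and 117680.0 to 178610.0 TPM in injured muscle. Injured libraries held 9899 to 10525 symbols above 1 TPM against 8912 to 9110, and they gave 20.9% to 29.3% of their TPM to the adult fast-twitch sarcomere list against 33.6% to 34.5% and 0.107% to 0.964% to 5 ribosomal RNA genes against 0.0731% to 0.101%. For each of these measures the groups did not overlap, and the two-sided exact permutation p was 0.00404, the smallest that 8 against 4 muscles allow. The injured muscle of rat 76, in the MMG arm, stood apart: it had the lowest fast-twitch share, the highest ribosomal RNA share, and the highest value of the 8 injured muscles in 1475 (81.1%) of the 1818 genes called higher below. Summed markers were above every contralateral muscle in all 8 injured muscles for macrophages (13.99 to 16.4 contralaterally, 44.8 to 102.7 TPM injured), fibroblasts (239 to 259 contralaterally, 1057 to 2039 TPM injured), endothelium (52.7 to 63.8 contralaterally, 74.3 to 126.01 TPM injured), smooth muscle (41.4 to 53.6 contralaterally, 63.7 to 136.3 TPM injured), mast cells (6.0 to 6.77 contralaterally, 12.2 to 26.96 TPM injured), T cells (0.79 to 1.30 contralaterally, 3.13 to 9.64 TPM injured), neutrophils (2.43 to 4.23 contralaterally, 4.67 to 16.1 TPM injured), adipocytes (2.82 to 5.86 contralaterally, 8.17 to 27.8 TPM injured), tendon (19.2 to 23.8 contralaterally, 48.2 to 130.2 TPM injured, from 2 of 3 markers in the table) and satellite cells (11.5 to 12.7 contralaterally, 14.6 to 30.5 TPM injured). Schwann cell markers (10.3 to 21.7 contralaterally, 15.1 to 103.2 TPM injured), erythrocyte markers (1255 to 3159 contralaterally, 2064 to 8703 TPM injured), B cell markers (0 to 0.32 contralaterally, 0.22 to 0.75 TPM injured) and epidermis markers (0.09 to 0.17 contralaterally, 0.16 to 0.30 TPM injured) overlapped between the groups or lay near 0. Such a separation was common: in 60.9% of all tested genes every injured muscle lay above every contralateral muscle. Among the satellite cell markers, Cdh15 did not share the rise, as given below. The part of cell composition in the differences below was not tested.

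Of 16181 symbols, 10347 averaged over 1 TPM in at least 1 group of injury and repair and were tested with limma on log2(TPM + 1), with repair as a covariate. A gene was called at a Benjamini-Hochberg adjusted p under 0.05 and a log2 fold change (injured minus contralateral) beyond 1 in either direction, and 1848 genes (17.9%) were called, 1818 higher (17.6%) and 30 lower (0.29%) in injured muscle. The highest and lowest muscles of the groups did not overlap in 6929 genes (67%), of which 6302 (60.9%) were higher and 627 (6.06%) lower in injured muscle. By the adjusted p alone, 7287 genes (70.4%) were higher and 870 (8.41%) lower. Of the genes called higher, 310 were beyond a log2 fold change of 2, 68 beyond 3, 26 beyond 4 and 11 beyond 5. The median over all tested genes was itself 0.46, and 83.7% of genes were above 0. Each list of genes is therefore read against that median, and its calls against the shares of 17.6% higher and 0.29% lower. With TPM divided by median-of-ratios size factors this median was -0.03 and 1119 genes were called, 846 higher (8.29%) and 273 lower (2.67%), and higher calls made up 75.6% of calls in place of 98.4%. Dividing by size factors lowered fold changes as a whole, and a shift of this size leaves calls beyond 1 on their side of 0. So all 30 genes called lower were also lower on that scale and no gene called higher fell below 0, which is no separate support. On both scales 876 genes were called (47.4% of the TPM calls and 78.3% of the others). Without the injured muscle of rat 76, 1625 genes were called, and in 1768 of the 1818 genes called higher the other 7 injured muscles all lay above the highest contralateral muscle.

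**Figure D1:**
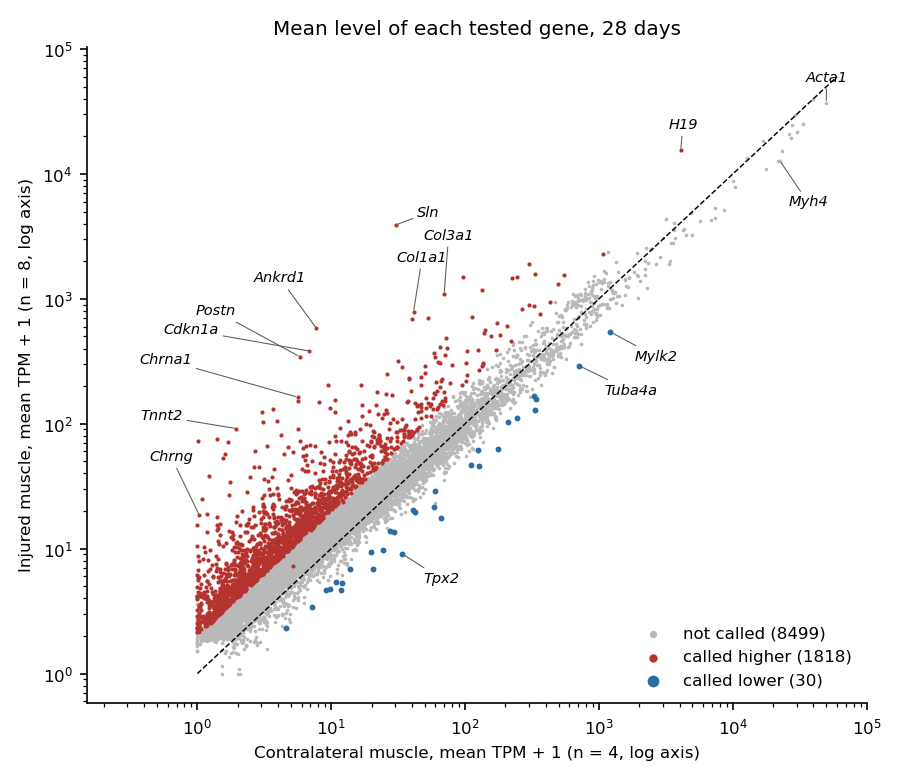
Mean TPM + 1 of each of the 10347 tested genes in contralateral muscle (x axis, n = 4, log scale) and in injured muscle (y axis, n = 8, log scale), with equal levels on the dashed line. Red points are the 1818 genes called higher and blue points the 30 called lower, and the red cloud fills the region of low contralateral levels while the most abundant genes, such as Acta1 and Myh4, lie slightly below the line.

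The 8 highest fold changes among called genes without overlap of the groups ranged from 5.24 to 6.98, and several of these genes are known from stressed or immature fibres and from scar. Values of contralateral muscles are given in the order of rats 73, 74, 75 and 76, and values of injured muscles as the lowest, the median and the highest of 8. Sln was at 27.7, 53.8, 16.1 and 20.6 TPM in the contralateral muscles and at 2016, 3004 and 8374 TPM in the injured muscles. The gene encodes sarcolipin, a small inhibitor of the calcium pump of the sarcoplasmic reticulum, and its log2 fold change of 6.98 (SE 0.39, adjusted p = 1.14e-07) was the largest called. Even the lowest injured muscle, that of rat 83 at 2016 TPM, was far above the highest contralateral muscle, that of rat 74 at 53.8 TPM. For Ankrd1, contralateral values of 8.99, 5.94, 5.96 and 6.14 TPM stood against injured values of 347, 431 and 1163 TPM. Ankrd1 encodes a muscle ankyrin repeat protein of the stretched or damaged fibre, it differed by 6.08 (SE 0.33, adjusted p = 1.07e-07), and the injured muscles of rats 81 and 76 were the highest. Contralateral levels of Cdkn1a were 7.31, 4.8, 8.04 and 3.35 TPM and injured levels 208, 338 and 853 TPM. This gene encodes p21, which stops the cell cycle and is on in differentiating myoblasts, and its log2 fold change was 5.72 (SE 0.31, adjusted p = 1.07e-07) with rat 76 apart from the rest. Tnnt2, the troponin T of heart and embryonic skeletal muscle, was at 1.20, 0.88, 0.73 and 1.02 TPM contralaterally and at 35.3 to 181 (median 75.9) TPM in injured muscle, a log2 fold change of 5.404 (SE 0.32, adjusted p = 2.18e-07).

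The other 4 of these genes were at low levels in contralateral muscle. TPM of Clrn1 were 0.05, 0, 0 and 0 in contralateral muscle and 29.5, 53.7 and 161 in injured muscle. Clrn1 encodes clarin 1, a membrane protein known from sensory hair cells, and it was listed at 0 in contralateral muscles of rats 74, 75 and 76, so that the size of its log2 fold change, 5.96 (SE 0.36, adjusted p = 2.5e-07), depends on the pseudocount of 1 TPM. Klk1, tissue kallikrein, a protease that releases kinins, was at 0.44, 0.29, 0.59 and 0.27 TPM contralaterally and at 36.5 to 139.9 (median 68.6) TPM in injured muscle (5.63, SE 0.30, adjusted p = 1.07e-07). Scd, a desaturase that makes monounsaturated fatty acids, went from 1.29, 2.54, 2.50 and 1.76 TPM to 46.1 to 214 (median 100.7) TPM (5.24, SE 0.33, adjusted p = 2.98e-07). Postn, a secreted protein of scar and tendon matrix, spread widely among the injured muscles, 61.8 to 702 (median 348) TPM against 6.29, 4.94, 2.18 and 5.90 TPM contralaterally (5.63, SE 0.56, adjusted p = 4.12e-06), with rat 75 lowest and rat 84 highest. These 8 genes were chosen among called genes without overlap, so their lack of overlap is no separate result. All 8 were called with size factors too, as fold changes of this size would be under the shift of that scale.

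**Figure D2:**
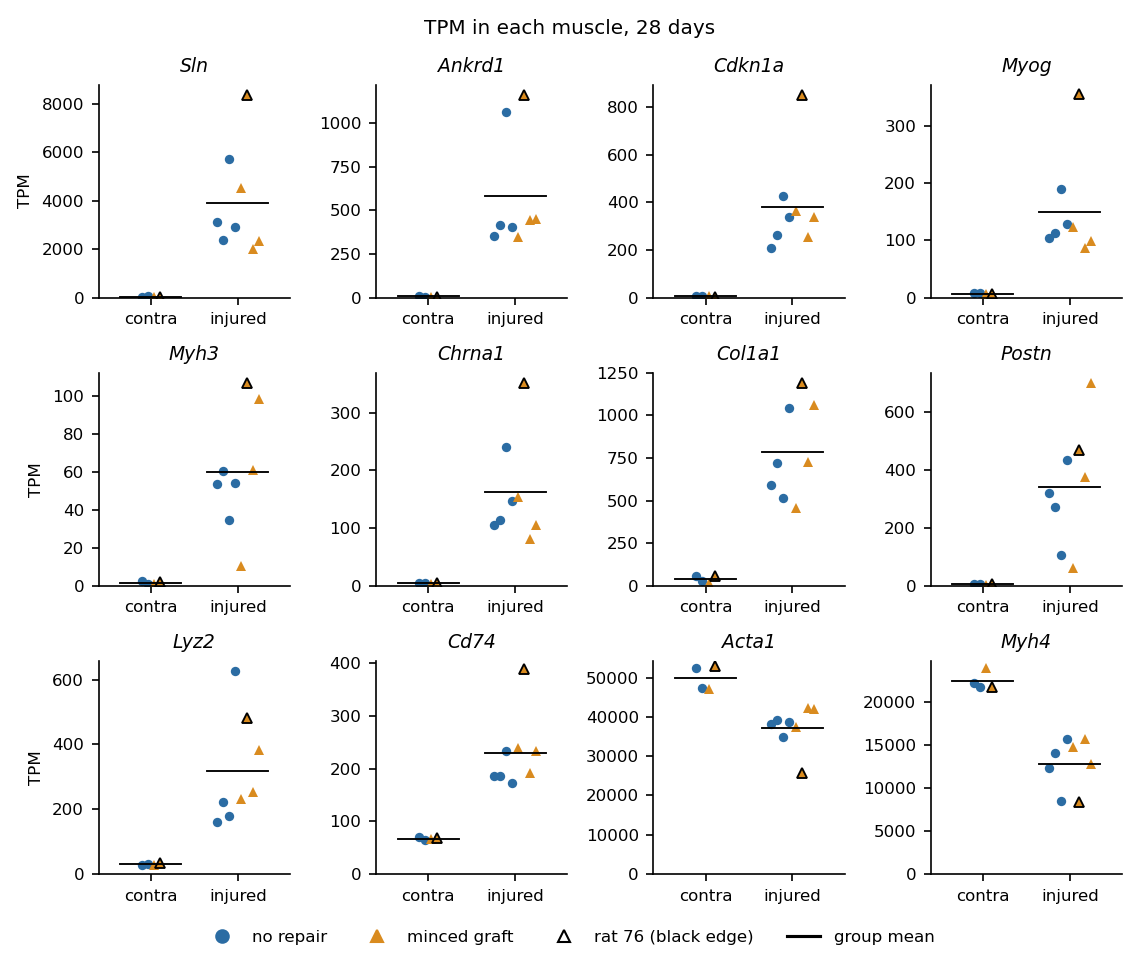
TPM of 12 genes in each muscle at 28 DPI, contralateral (4 muscles) on the left and injured (8 muscles) on the right of each panel, from 0 on every y axis. Blue circles are the NoRepair arm, orange triangles the MMG arm, black edges mark both muscles of rat 76 and the lines are group means: the groups do not overlap in any of the 12 panels, and rat 76 is the highest injured muscle for Sln, Ankrd1, Cdkn1a, Myog, Myh3, Chrna1, Col1a1 and Cd74 and the lowest for Acta1 and Myh4.

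Among regulators of myogenesis, those of differentiation and fusion had the largest differences. Of 18 tested genes of satellite cells and myogenic regulation, 6 were called higher and none lower by limma, with a median log2 fold change of 0.70 (0.15 with size factors, where 4 were called higher and 1, Mstn, lower). Myog was at 7.63, 7.44, 6.36 and 6.83 TPM in the contralateral muscles and at 86.01, 118 and 354 TPM in the injured muscles. Myogenin commits myoblasts to fusion, and its log2 fold change was 4.07 (SE 0.30, adjusted p = 6.69e-07). Tmem8c, or myomaker, the membrane protein needed for myoblast fusion, was at or near 0 contralaterally (0.14, 0.05, 0.04 and 0.09 TPM) and at 11.1 to 52.7 (median 19.9) TPM in injured muscle (4.40, SE 0.29, adjusted p = 3.52e-07). The earlier factors moved less. Myod1 went from 26.4, 33.3, 23.8 and 22.9 TPM to 48.6 to 142.8 (median 63.6) TPM (1.34, SE 0.23, adjusted p = 0.000227), Myf5 had a log2 fold change of 1.63 (SE 0.22, adjusted p = 4.04e-05), and Msc, a repressor of Myod1 targets, of 1.97 (SE 0.22, adjusted p = 9.04e-06). Of these, Myod1 had a log2 fold change of 0.79 with size factors and was not called there. Pax7, the transcription factor that defines satellite cells, was at 1.06, 0.82, 0.96 and 0.95 TPM contralaterally and at 1.79 to 5.62 (median 2.45) TPM in injured muscle: the groups did not overlap, and its log2 fold change of 0.87 (SE 0.19, adjusted p = 0.00109) was under the limit of 1. With a pseudocount of 0.1 TPM in place of 1 TPM it was 1.33 and called. Myf6, which is high in mature fibres, had 0.82 (SE 0.20, adjusted p = 0.00196) and the satellite cell adhesion gene Cdh15 had -0.12 (SE 0.10, adjusted p = 0.3), and neither was called. Cdh15 was below its contralateral range in 6 of 8 injured muscles, and rats 84 and 76, at 10.4 and 11.1 TPM, were above it.

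Contractile genes of embryonic, neonatal and cardiac type were high in injured muscle. Of 14 tested genes of the developing and regenerating sarcomere, 9 were called higher and none lower by limma, with a median of 1.78 (1.22 with size factors, 8 called higher). For Myh3, contralateral values of 2.65, 1.20, 1.01 and 1.85 TPM stood against injured values of 10.3, 57.0 and 106.8 TPM. This embryonic myosin heavy chain is a standard marker of new fibres. The injured muscle of rat 75 at 10.3 TPM was far below the other 7, all at 34.4 TPM or more, yet above every contralateral muscle, and the log2 fold change was 4.30 (SE 0.48, adjusted p = 9.04e-06). The neonatal myosin Myh8 had the same low muscle, 11.6 TPM in rat 75 against contralateral values of 6.08, 4.91, 5.41 and 5.77 TPM, and a log2 fold change of 2.61 (SE 0.40, adjusted p = 8.84e-05). Actc1, the cardiac actin of fetal muscle, rose from 64.8, 58.6, 50.8 and 83.2 TPM to 192 to 797 (median 328) TPM (2.53, SE 0.32, adjusted p = 2.17e-05). Csrp3, a Z-disc sensor of load, and Tnni1, the slow and fetal troponin I, had log2 fold changes of 2.20 (SE 0.31, adjusted p = 4.74e-05) and 1.99 (SE 0.30, adjusted p = 8.49e-05). Myosin genes are close copies of each other, so reads could have been split between them.

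Of 19 tested genes of the neuromuscular junction and of denervation, 12 were called higher and none lower by limma, with a median of 1.20 and no overlap between groups in 16 of the 19 (15 higher and 1 lower, against 60.9% and 6.06% of all genes). With size factors the median was 0.77 and 8 were called higher. The receptor itself led the list. The muscle acetylcholine receptor is built from the alpha (Chrna1), beta (Chrnb1) and delta (Chrnd) subunits with gamma (Chrng) in fetal or denervated fibres and epsilon (Chrne) at the adult synapse, and Musk is the kinase that clusters it. Contralateral levels of Chrna1 were 4.47, 4.88, 3.83 and 5.22 TPM and injured levels 81.6, 130.4 and 352 TPM. All 8 injured muscles were above the contralateral ones, rat 76 being highest and rat 83 lowest, and the log2 fold change was 4.71 (SE 0.32, adjusted p = 4.07e-07). TPM of Chrng were 0.11, 0, 0.03 and 0 in contralateral muscle and 7.67, 13.9 and 42.3 in injured muscle. The fetal subunit was thus at 0 or near it in uninjured muscle, listed at 0 for rats 74 and 76, and its log2 fold change was 3.98 (SE 0.34, adjusted p = 1.5e-06). Chrnd went from 3.97, 2.69, 2.81 and 3.29 TPM to 29.1 to 196 (median 60.6) TPM (4.042, SE 0.40, adjusted p = 4.12e-06). The adult subunit Chrne was higher as well, at 31.6 to 100.9 (median 42.3) TPM against 8.46, 7.49, 5.66 and 7.47 TPM (2.46, SE 0.26, adjusted p = 5.55e-06), and Chrnb1, the subunit with the highest level in uninjured muscle, differed least (1.001, SE 0.21, adjusted p = 0.00072). Chrnb1 lay at the fold limit: it was not called with size factors (0.45) or when the contralateral muscle of rat 74 (0.96) or 76 (0.99) or the injured muscle of rat 75 (0.998), 76 (0.88) or 81 (0.92) was left out. Musk had a log2 fold change of 2.77 (SE 0.30, adjusted p = 8.24e-06). Genes known to come on in denervated fibres were among the calls: Ncam1, a cell adhesion molecule, had 3.26 (SE 0.30, adjusted p = 2.79e-06), and Runx1, a transcription factor, 2.87 (SE 0.36, adjusted p = 2.16e-05).

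Other genes of the junction were not called. Rapsn, the scaffold under the receptor, had a log2 fold change of 0.51 (SE 0.12, adjusted p = 0.0025), Ache, the enzyme that breaks down acetylcholine, of 0.01 (SE 0.12, adjusted p = 0.962), Dok7, the adaptor that activates Musk, of 0.13 (SE 0.09, adjusted p = 0.197), and Scn4a, the adult sodium channel, of -0.33 (SE 0.09, adjusted p = 0.00408). With size factors these values were -0.03, -0.54, -0.40 and -0.89. Of the atrophy genes, which a denervated fibre is also known to use, 1 of 13 tested was called higher and none lower, with a median of -0.04 (-0.60 with size factors, none higher and 2 lower). The ubiquitin ligases Trim63 and Fbxo32 had log2 fold changes of 0.47 (SE 0.14, adjusted p = 0.00816) and -0.56 (SE 0.18, adjusted p = 0.0118), in opposite directions, and with size factors of -0.09 and -1.12, the latter called lower there. The called gene was Fbxo30 (1.14, SE 0.16, adjusted p = 5.62e-05), a ligase known from atrophy, which was not called with size factors (0.63).

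The windows of 250 bases before the start of the 6 receptor and clustering genes are shown because all 6 were called together and because their promoters are known to bind myogenic factors at E-boxes. They were read from RefSeq promoter sequences of the GRCr8 build, which is not the build the authors mapped to, and each is written on the strand of its gene with the E-box CAGCTG (its own reverse complement, so the same on both strands) in capitals. The windows are chr3:78877354-78877603 (minus strand) for Chrna1, chr10:55015108-55015357 (minus) for Chrnb1, chr9:95310066-95310315 (plus) for Chrnd, chr10:55834155-55834404 (minus) for Chrne, chr9:95325734-95325983 (plus) for Chrng and chr5:77853486-77853735 (plus) for Musk.
Chrna1: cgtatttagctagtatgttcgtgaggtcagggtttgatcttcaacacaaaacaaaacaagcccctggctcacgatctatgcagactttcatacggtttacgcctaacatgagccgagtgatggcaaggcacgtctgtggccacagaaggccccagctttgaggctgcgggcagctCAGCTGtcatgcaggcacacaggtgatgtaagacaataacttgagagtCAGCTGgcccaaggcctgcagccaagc
Chrnb1: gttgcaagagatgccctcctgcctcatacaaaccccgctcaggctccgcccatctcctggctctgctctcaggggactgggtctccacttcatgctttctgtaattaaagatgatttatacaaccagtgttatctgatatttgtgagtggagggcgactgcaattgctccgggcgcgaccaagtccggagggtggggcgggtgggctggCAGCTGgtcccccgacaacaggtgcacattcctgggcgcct
Chrnd: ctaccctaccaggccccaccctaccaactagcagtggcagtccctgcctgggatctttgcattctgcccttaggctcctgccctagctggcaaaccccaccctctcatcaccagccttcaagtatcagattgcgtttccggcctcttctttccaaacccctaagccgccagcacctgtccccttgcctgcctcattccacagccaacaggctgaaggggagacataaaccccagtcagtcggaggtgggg
Chrne: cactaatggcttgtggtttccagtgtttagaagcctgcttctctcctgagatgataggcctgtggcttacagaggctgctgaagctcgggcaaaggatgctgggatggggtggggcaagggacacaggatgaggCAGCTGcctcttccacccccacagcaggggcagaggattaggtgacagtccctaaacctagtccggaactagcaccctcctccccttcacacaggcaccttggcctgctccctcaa
Chrng: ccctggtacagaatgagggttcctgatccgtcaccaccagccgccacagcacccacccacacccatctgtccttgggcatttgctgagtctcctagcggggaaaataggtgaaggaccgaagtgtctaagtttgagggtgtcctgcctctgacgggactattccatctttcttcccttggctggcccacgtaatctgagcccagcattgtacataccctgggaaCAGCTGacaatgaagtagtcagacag
Musk: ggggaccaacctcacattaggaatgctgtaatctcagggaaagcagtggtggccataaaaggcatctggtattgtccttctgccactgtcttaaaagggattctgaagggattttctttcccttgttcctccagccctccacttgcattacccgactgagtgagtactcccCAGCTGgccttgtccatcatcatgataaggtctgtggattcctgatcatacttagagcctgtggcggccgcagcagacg
The motif began 75 and 27 bases before the start of Chrna1, 41 before Chrnb1, 116 before Chrne, 26 before Chrng and 79 before Musk, and these letters were not in the window of Chrnd. So 5 of the 6 windows held it, against 12% of 33469 RefSeq promoter windows of the same length, 13.2% of the 7777 tested genes with a window and 15.6% of the 1302 genes called higher with a window. The match is a description of these letters and says nothing of binding.

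Stress and growth arrest genes held some of the largest fold changes. Of 11 tested muscle ankyrin repeat and stress genes, 4 were called higher and none lower: Ankrd1, Cdkn1a, Csrp3 and Gadd45a, a stress-induced gene of growth arrest (3.11, SE 0.35, adjusted p = 1e-05). The small heat shock and chaperone genes of the same list, such as Hspb1 and Cryab, had log2 fold changes of 0.84 (SE 0.12, adjusted p = 7.3e-05) and 0.00 (SE 0.19, adjusted p = 0.996) and were not called. Ankrd23, a relative of Ankrd1, had -0.56 (SE 0.13, adjusted p = 0.00164), and it alone was called lower with size factors (-1.12). The median of the list was 0.84 and 0.28 with size factors. In a list of 25 genes of cell-cycle arrest and the p53 response that was added after values were seen, 12 were called higher and none lower. The share over all genes was 17.6%, and the median of the list was 0.88 (0.52 with size factors).

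Of 34 tested cell cycle genes, 6 were called higher (17.6%, the same share as over all genes) and none lower by limma, with a median of 0.76, and 1 of them was called with size factors. The groups did not overlap in 32 of the 34, all higher (60.9% of all genes), and levels were low. Mki67, the proliferation antigen, was at 0.16, 0.19, 0.14 and 0.25 TPM contralaterally and at 0.63 to 2.06 (median 0.94) TPM in injured muscle, and Top2a, the topoisomerase of dividing cells, at 0.11, 0.14, 0.11 and 0.24 TPM and 0.47 to 1.85 (median 0.87) TPM. Their log2 fold changes of 0.81 (SE 0.16, adjusted p = 0.000582) and 0.82 (SE 0.18, adjusted p = 0.00102) did not reach the limit with the pseudocount of 1 TPM. With one of 0.1 TPM they were 2.02 and 2.14. Both were then called. The leading call was Cdk1, the kinase that starts mitosis, at 1.12 to 3.97 (median 2.40) TPM against 0.09, 0.23, 0.41 and 0.27 TPM (1.47, SE 0.22, adjusted p = 6.86e-05).

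Tpx2 went the other way. It encodes a spindle assembly factor, was on no list, and had the lowest log2 fold change of any called gene, -2.002 (SE 0.27, adjusted p = 4.05e-05). Tpx2 was at 36.4, 39.2, 29.3 and 27.1 TPM in the contralateral muscles and at 3.95, 7.37 and 14.7 TPM in the injured muscles. The groups did not overlap, and the value was lower in both arms (-2.55 and -1.46).

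Of the 30 genes called lower, the 8 lowest without overlap between groups were Tpx2, Cacng7, Dusp26, Tuba8, Lmod1, Nrtn, Tuba4a and Chac1, with Mylk2 next. For Mylk2, contralateral values of 1244, 1267, 1219 and 1098 TPM stood against injured values of 266, 610.2 and 711 TPM. Mylk2 encodes the myosin light chain kinase of skeletal muscle, its log2 fold change was -1.23 (SE 0.27, adjusted p = 0.00103), and the muscles of rats 76 and 81 were lowest. Tuba4a, an alpha tubulin gene, went from 681, 792, 698 and 668 TPM to 219 to 392 (median 270.0) TPM (-1.31, SE 0.15, adjusted p = 1.11e-05). Tuba8, another alpha tubulin gene, went from 325, 354, 343 and 309 TPM to 68.0 to 187 (median 127.2) TPM (-1.44, SE 0.22, adjusted p = 9.94e-05). Dusp26, a phosphatase of the MAP kinases, had -1.55 (SE 0.18, adjusted p = 1.44e-05), Lmod1, a leiomodin that nucleates actin, -1.40 (SE 0.22, adjusted p = 9.34e-05), Nrtn, the neurotrophic factor neurturin, -1.38 (SE 0.20, adjusted p = 5.28e-05), and Cacng7, an accessory subunit of calcium channels and glutamate receptors, -1.63 (SE 0.21, adjusted p = 2.93e-05). Pfkfb3, which makes the main activator of glycolysis, was called lower with overlapping groups: the injured muscle of rat 75 at 109 TPM lay among the contralateral values of 122, 65.8, 132.5 and 179 TPM, whereas the other 7 were at 56.5 TPM or less. Pfkfb3 was not called (-0.80) against muscle labelled sham, 4 muscles of 2 rats at day 0 that took the place of the contralateral muscle in an alternative fit. Chac1, an enzyme that degrades glutathione under stress, had -1.30 (SE 0.26, adjusted p = 0.000519). Over the 4 rats with both muscles it was at -0.91 and not called, with or without a block for the rat, nor with a rat-number covariate. Each of these genes was also called lower with size factors, which lower fold changes as a whole, so this adds no support.

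Most adult fast-fibre genes did not reach the fold limit. Of 19 tested adult fast-twitch sarcomere genes, 1 (Mylk2) was called lower and none higher by limma, 13 lay below every contralateral muscle without overlap (6.06% of all genes), and the median was -0.44. With size factors, which lower fold changes as a whole, the median was -1.0003 and 10 were called lower. Contralateral levels of Acta1 were 52543, 47466, 47116 and 52881 TPM and injured levels 25692, 38487 and 42213 TPM. Acta1, the skeletal alpha actin and the most abundant listed gene, had a log2 fold change of -0.44 (SE 0.17, adjusted p = 0.0275), and rat 76 was lowest at 25692 TPM. TPM of Myh4 were 22229, 21787, 24008 and 21785 in contralateral muscle and 8348, 13459 and 15760.0 in injured muscle. The fast IIb myosin Myh4 had -0.85 (SE 0.19, adjusted p = 0.00156), and rats 76 and 81 were lowest. Myh1, Myh2, Mylpf and Tnnt3, also of fast fibres, lay between -0.19 and 0.08. Calcium handling genes ranged from Sln, described above, to Atp2a1, the fast calcium pump that sarcolipin inhibits, at -0.72 (SE 0.16, adjusted p = 0.00125). In that list 2 of 16 were called higher (against 17.6% of all genes) and none lower (median 0.07, and -0.49 with size factors where 3 were called lower). The second was Casq2, the calsequestrin of slow and cardiac muscle, at 28.3 to 98.2 (median 77.1) TPM against 12.4, 13.04, 7.87 and 10.4 TPM (2.52, SE 0.29, adjusted p = 1.23e-05).

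Of 13 tested slow-fibre genes, 2 were called higher (Casq2 and Tnni1) and none lower, no more than the 17.6% of all genes called higher. The median was 0.64 (0.09 with size factors). Myh7, the slow myosin heavy chain, was at 154, 89.7, 63.1 and 103.4 TPM in contralateral muscle. In injured muscle it was at 266, 239 and 251 TPM in rats 73, 74 and 81 but at 4.0 TPM in rat 82 of the NoRepair arm, and at 267 and 128.6 TPM in rats 83 and 84 but at 49.8 and 35.4 TPM in rats 75 and 76 of the MMG arm. Tnnt1, the slow troponin T, had its lowest injured values in the same 3 muscles, 25.9, 88.8 and 112 TPM in rats 82, 76 and 75. The groups overlapped for both genes, and their log2 fold changes were -0.10 (SE 0.94, adjusted p = 0.928) and 0.27 (SE 0.70, adjusted p = 0.735).

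Genes of energy metabolism lay mostly at or below 0. Of 65 tested nuclear genes of oxidative phosphorylation, 1 was called higher and none lower by limma, and the median was -0.23 (-0.79 with size factors, 4 called lower). The called gene was Cox8a, a cytochrome oxidase subunit, at 229 to 409 (median 242) TPM against 124, 131.96, 122 and 128.3 TPM (1.06, SE 0.14, adjusted p = 3.06e-05), and it was not called with size factors (0.50) or without the injured muscle of rat 76 (0.96). Ndufs1 of complex I and Sdha of complex II had log2 fold changes of -0.37 (SE 0.12, adjusted p = 0.0127) and -0.43 (SE 0.12, adjusted p = 0.00545). Of 35 tested genes of glycolysis and glycogen, 4 were called higher and 2 lower (Pfkfb3 and Ppp1r3c), with a median of -0.42 (-0.98 with size factors, 1 called higher and 14 lower). The members called higher are known from tissues other than fast muscle: Pfkp, Hk1, Pygl and Pygb, isoforms of platelets, brain and liver, with log2 fold changes from 1.17 to 1.46. Their muscle counterparts lay below 0, Pfkm at -0.79 (SE 0.17, adjusted p = 0.000868) and Pygm, the muscle glycogen phosphorylase, at -0.81 (SE 0.23, adjusted p = 0.00586). Of 34 genes of fatty acid uptake and oxidation, 1 was called higher and none lower, with a median of -0.02 (-0.58 with size factors, 1 called lower). It was Cpt1a, the liver isoform of the mitochondrial importer (1.24, SE 0.18, adjusted p = 6e-05), while the muscle isoform Cpt1b stayed at 0.04 (SE 0.09, adjusted p = 0.692).

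**Figure D3:**
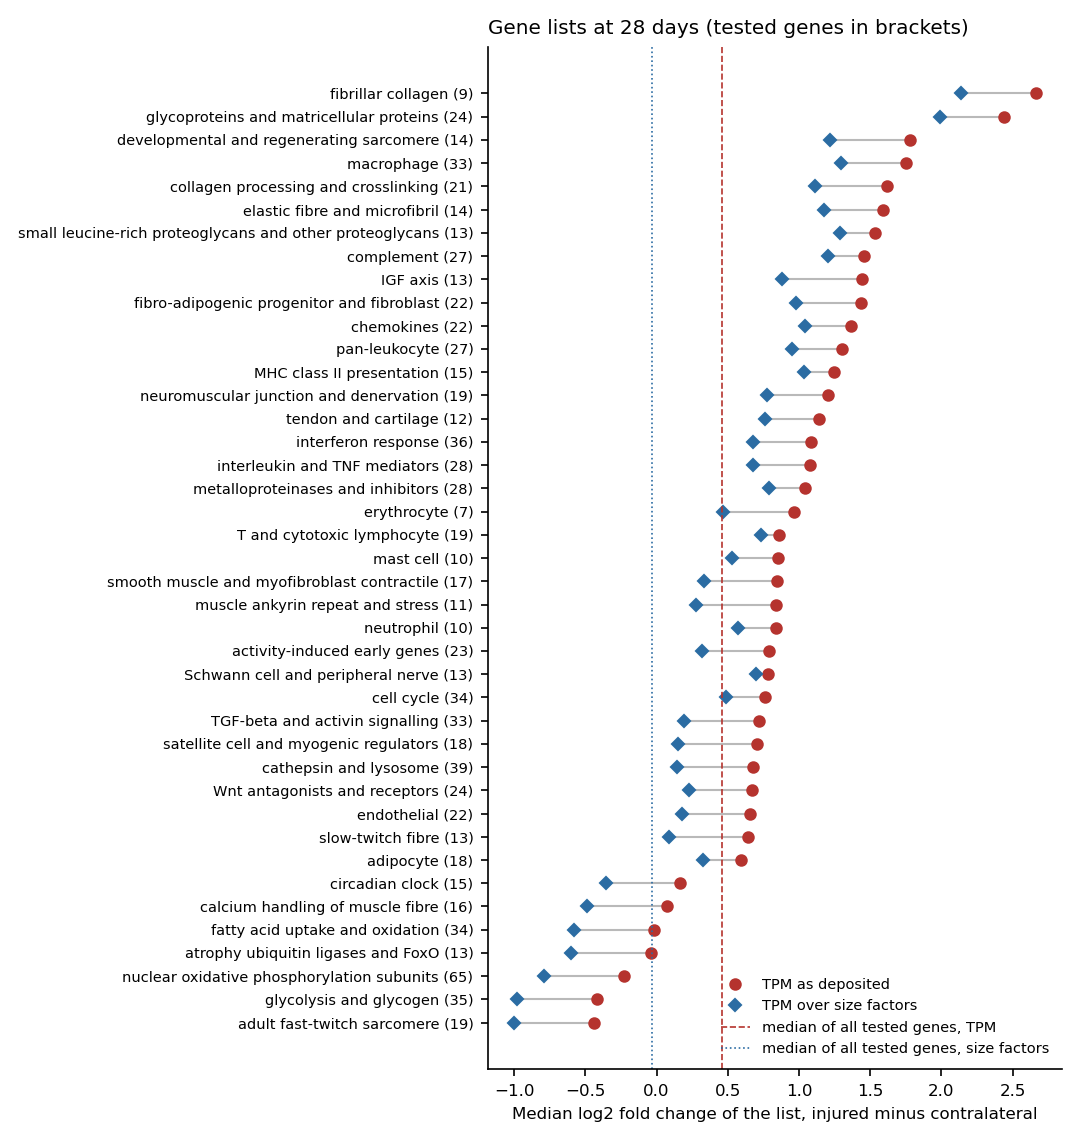
Median log2 fold change (injured minus contralateral) of each gene list with at least 4 tested genes and at least 80% of its genes in the table, on TPM as deposited (red circles) and on TPM divided by size factors (blue diamonds). Vertical lines are the medians of all tested genes on each scale, 0.46 and -0.03: matrix, macrophage and developmental sarcomere lists lie to the right of both lines, and fast-twitch sarcomere, glycolysis and oxidative phosphorylation to the left.

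Of 9 tested fibrillar collagens, 8 were called higher and none lower, with a median of 2.66 (2.14 with size factors, 7 called). Col1a1 was at 60.3, 28.2, 15.7 and 56.6 TPM in the contralateral muscles and at 454, 721 and 1192 TPM in the injured muscles. Col1a1 forms type I collagen, the main fibre of scar and tendon, with Col1a2. Its log2 fold change was 4.36 (SE 0.36, adjusted p = 1.22e-06), with rats 76, 84 and 82 highest. Col3a1, the collagen of young scar, was at 670.3 to 1644 (median 1043) TPM against 83.3, 60.1, 39.9 and 91.8 TPM (3.99, SE 0.25, adjusted p = 2.71e-07), and Col1a2 and Col5a1, which sets fibril diameter, had 3.77 (SE 0.28, adjusted p = 7.26e-07) and 3.09 (SE 0.22, adjusted p = 5.64e-07). Of the 7 tested interstitial collagens of other kinds, a list with fewer than 80% of its genes in the table, 6 were called higher with a median of 2.65, led by Col16a1 (3.15, SE 0.28, adjusted p = 2.12e-06). Col7a1, the collagen of anchoring fibrils under the epidermis, was below 0 and not called (-0.52, SE 0.13, adjusted p = 0.00347). Glycoproteins and matricellular proteins had 23 of 24 called higher and none lower, with a median of 2.44 (1.99 with size factors, 20 called). For Cilp, contralateral values of 3.43, 2.05, 2.33 and 2.92 TPM stood against injured values of 87.9, 107.1 and 266 TPM. Cilp, a protein of cartilage and fibrous matrix, had a log2 fold change of 5.067 (SE 0.23, adjusted p = 1.07e-07). Cthrc1, a secreted protein of activated fibroblasts, was near 0 contralaterally and differed by 4.65 (SE 0.52, adjusted p = 9.6e-06). Tnc, tenascin C, a glycoprotein of fresh wounds, varied widely among injured muscles, from 1.52 TPM in rat 75 to 22.03 TPM in rat 84 (2.83, SE 0.51, adjusted p = 0.0003).

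Proteoglycans, elastic fibres and basement membranes followed. Of 13 tested proteoglycans, 9 were called higher and none lower (median 1.54, 6 called with size factors). Aspn, asporin, which binds collagen and TGF-beta, went from 2.95, 2.90, 2.21 and 3.56 TPM to 31.7 to 182 (median 95.8) TPM (4.55, SE 0.41, adjusted p = 2.21e-06). Bgn (biglycan) and Lum (lumican), which space collagen fibrils, had 3.80 (SE 0.23, adjusted p = 2.14e-07) and 3.50 (SE 0.29, adjusted p = 1.26e-06), and Dcn, decorin, the most abundant of them in uninjured muscle, had 1.54 (SE 0.11, adjusted p = 6.69e-07). Of 14 tested genes of elastic fibres and microfibrils, 10 were called higher and none lower (median 1.59, 8 called with size factors), and in all 14 the groups did not overlap, with injured muscle higher (60.9% of all genes). They were led by Mfap4 (4.38, SE 0.30, adjusted p = 4.1e-07), with Eln, elastin itself, at 26.5 to 69.6 (median 49.5) TPM against 6.79, 6.26, 4.71 and 7.14 TPM (2.77, SE 0.20, adjusted p = 5.53e-07) and Fbn1, the fibrillin of adult microfibrils, at 2.16 (SE 0.11, adjusted p = 1.07e-07). The basement membrane list, also under 80% complete, had 6 of 11 called higher and none lower (median 1.07, and 0.53 with size factors where 5 were called). Col4a1 had 2.07 (SE 0.20, adjusted p = 3.56e-06).

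Enzymes that process, crosslink or cut collagen were also among the calls. Of 21 tested genes of collagen processing and crosslinking, 15 were called higher and none lower, with a median of 1.62 (1.11 with size factors, 12 called). Lox and Loxl1, which crosslink collagen and elastin, were both called. Lox went from 1.70, 1.24, 1.10 and 1.14 TPM to 8.56 to 24.3 (median 13.1) TPM (2.70, SE 0.23, adjusted p = 1.78e-06). Loxl1 went from 2.29, 2.22, 1.69 and 2.37 TPM to 19.5 to 51.5 (median 33.4) TPM (3.47, SE 0.22, adjusted p = 2.98e-07). The collagen chaperone Serpinh1 had 1.998 (SE 0.17, adjusted p = 1.44e-06) and Bmp1, the protease that trims procollagen, 2.39 (SE 0.21, adjusted p = 1.79e-06). P4ha1, a prolyl hydroxylase subunit, stood at -0.01 (SE 0.07, adjusted p = 0.871) and was not called. Of 28 tested metalloproteinases and inhibitors, 15 were called higher and none lower, with a median of 1.04 (0.79 with size factors, 13 higher and 1 lower). Mmp14, a membrane protease that activates Mmp2, and Mmp2, a gelatinase, had 3.27 (SE 0.27, adjusted p = 1.22e-06) and 2.97 (SE 0.21, adjusted p = 5.53e-07), and the inhibitor Timp1 2.91 (SE 0.25, adjusted p = 1.65e-06). Mmp12, the macrophage elastase, split the injured muscles: rats 82, 84 and 76 held 19.3, 19.1 and 14.2 TPM, rats 83 and 75 held 3.93 and 3.47 TPM, and rats 73, 74 and 81 were under 1 TPM, all above contralateral values at or near 0 (2.38, SE 0.68, adjusted p = 0.00622).

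Signals that act on fibroblasts and on fibre growth were mixed. Of 33 tested genes of TGF-beta and activin signalling, 12 were called higher and none lower by limma, with a median of 0.72 (0.19 with size factors, 7 higher and 1 lower). Tgfb1, the ligand that drives collagen synthesis, went from 4.79, 4.86, 4.42 and 5.56 TPM to 18.7 to 41.1 (median 22.2) TPM (2.08, SE 0.16, adjusted p = 8.72e-07). Fst, follistatin, the secreted inhibitor of myostatin and activins, had 2.63 (SE 0.28, adjusted p = 6.12e-06), and Mstn, myostatin, which limits muscle size, had -0.65 (SE 0.25, adjusted p = 0.0326), which was not called, and was called lower with size factors at -1.17. The effectors Smad2 and Smad3 had 0.47 (SE 0.09, adjusted p = 0.000372) and 0.05 (SE 0.10, adjusted p = 0.655), and the targets Id2 and Id3, which block myogenic factors, 1.88 (SE 0.15, adjusted p = 1.04e-06) and 1.33 (SE 0.13, adjusted p = 3.41e-06). Of 13 tested genes of the IGF axis, 8 were called higher and none lower (median 1.44, 6 called with size factors). Igf1 and Igf2, growth factors of regenerating fibres, both had a log2 fold change of 2.26 (SE 0.23 and 0.23, adjusted p = 5.48e-06 and 5.11e-06). Their binding protein Igfbp5 had 2.59 (SE 0.23, adjusted p = 1.91e-06). Contralateral levels of H19 were 5819, 3018, 3299.6 and 4187 TPM and injured levels 12462, 15525 and 18128 TPM. H19 is a noncoding RNA from the imprinted Igf2 locus, and it had 1.97 (SE 0.16, adjusted p = 1.41e-06). In a list of imprinted genes added after values were seen, 10 of 18 tested were called higher and 1 lower (median 1.10, and 0.62 with size factors).

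Of 24 tested Wnt antagonists and receptors, 6 were called higher (against 17.6% of all genes) and none lower (median 0.67, and 0.22 with size factors where 4 were called). Of the 6, 4 are secreted antagonists. TPM of Sfrp4 were 3.12, 4.78, 4.49 and 6.20 in contralateral muscle and 52.1, 92.9 and 115 in injured muscle. Sfrp4 had 4.01 (SE 0.16, adjusted p = 4.26e-08), with rat 73 low among the injured muscles, and Sfrp2, Dkk3 and Sfrp1 had 2.83, 2.41 and 1.59.

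Fibroblast genes were high and smooth muscle genes less so. Of 22 tested genes of fibro-adipogenic progenitors and fibroblasts, 15 were called higher and none lower (median 1.43, and 0.98 with size factors where 11 were called). Pdgfra was at 2.93, 3.33, 2.86 and 2.97 TPM in the contralateral muscles and at 9.70, 10.9 and 16.96 TPM in the injured muscles. This receptor marks the progenitors, and it had 1.64 (SE 0.13, adjusted p = 8.22e-07). Thy1, Fap and Pdpn, surface proteins of activated stroma, had 2.80 (SE 0.25, adjusted p = 2.12e-06), 2.26 (SE 0.18, adjusted p = 1.06e-06) and 2.02 (SE 0.12, adjusted p = 2.5e-07). For S100a4, contralateral values of 35.8, 39.8, 42.8 and 38 TPM stood against injured values of 414, 637 and 1201 TPM. S100a4, a calcium-binding protein of fibroblasts and macrophages, had 4.03 (SE 0.21, adjusted p = 1.07e-07), and Snai1, a repressor of epithelial genes, 1.30 (SE 0.17, adjusted p = 2.86e-05). The contractile list of smooth muscle and myofibroblasts had 5 of 17 called higher and 1 lower (Lmod1), against 17.6% and 0.29% of all genes. Its median was 0.85 (0.33 with size factors, none higher and 1 lower). Acta2, smooth muscle actin, was at 51.2 to 106.9 (median 88.4) TPM against 40.9, 37.4, 32.7 and 33.9 TPM (1.20, SE 0.18, adjusted p = 7.15e-05, and 0.65 with size factors), and Tagln, transgelin, had 1.32 (SE 0.18, adjusted p = 3.79e-05). Of 12 tendon and cartilage genes, 6 were called higher and none lower (median 1.14, 4 called with size factors). Tnmd, tenomodulin, a membrane protein of mature tendon, ranged from 7.29 TPM in rat 81 to 90.5 TPM in rat 84 against 2.17, 1.39, 1.42 and 0.95 TPM contralaterally (3.55, SE 0.52, adjusted p = 6.28e-05), and the tendon factor Scx had 0.92 (SE 0.21, adjusted p = 0.00126) and was not called. Scx was called without the injured muscle of rat 83 (1.02), over the 4 rats with both muscles, with or without a block, and with a rat-number covariate (1.04 in each).

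Macrophage genes were higher almost without exception. Of 33 tested, 30 were called higher and none lower by limma, with a median of 1.75 (1.29 with size factors, 26 called). Contralateral levels of Lyz2 were 27.5, 31.7, 28.6 and 33.6 TPM and injured levels 159, 242 and 628 TPM. Lyz2, the lysozyme of myeloid cells, had 3.19 (SE 0.31, adjusted p = 4.03e-06), and rats 82 and 76 were highest. TPM of Gpnmb were 4.07, 4.37, 4.71 and 5.31 in contralateral muscle and 53.6, 96.0 and 490.1 in injured muscle. Gpnmb, a glycoprotein of lipid-laden macrophages, had 4.38 (SE 0.46, adjusted p = 6.49e-06), and the injured muscle of rat 82 lay far above the other 7. The same muscle was highest for Cd68, a lysosomal macrophage protein (59.4 TPM in rat 82, 13.6 to 59.4, median 19.995 TPM over the 8, 2.74, SE 0.32, adjusted p = 1.29e-05), and for the inhibitory receptor Lilrb4 (107.4 TPM, 3.89, SE 0.48, adjusted p = 1.83e-05). Mrc1, the mannose receptor of tissue-resident macrophages, was more even, at 7.22 to 13.9 (median 10.1) TPM against 2.36, 2.54, 2.46 and 2.57 TPM (1.63, SE 0.13, adjusted p = 1.07e-06). Spp1, osteopontin, a secreted protein of macrophages and scar, had 3.25 (SE 0.38, adjusted p = 1.21e-05). Of 39 tested cathepsin and lysosome genes, 14 were called higher and none lower (median 0.68, and 0.14 with size factors where 8 were called). Ctsk and Acp5, enzymes of matrix-degrading macrophages and osteoclasts, had 3.42 (SE 0.30, adjusted p = 1.92e-06) and 2.64 (SE 0.27, adjusted p = 5.55e-06), whereas Lamp1, a membrane protein of all lysosomes, had 0.20 (SE 0.06, adjusted p = 0.0125).

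Genes of antigen presentation, complement and chemokines were also higher. Of 27 tested pan-leukocyte genes, 20 were called higher and none lower (median 1.30, 12 with size factors), with Ptprc (CD45) at 3.05 to 8.69 (median 4.30) TPM against 1.17, 1.12, 0.66 and 1.08 TPM (1.58, SE 0.23, adjusted p = 5.58e-05). Of 15 genes of MHC class II presentation, 10 were called higher and none lower (median 1.24, 7 with size factors). Cd74 was at 69.8, 63.9, 66.0 and 67.5 TPM in the contralateral muscles and at 173, 212 and 388 TPM in the injured muscles. Cd74 is the invariant chain of class II molecules and had 1.72 (SE 0.16, adjusted p = 2.38e-06), and the class II chains RT1-Da and RT1-Ba, which have near-identical relatives, had 1.77 (SE 0.18, adjusted p = 4.56e-06) and 1.80 (SE 0.18, adjusted p = 4.75e-06). Of 27 complement genes, 15 were called higher and none lower (median 1.46, 14 with size factors), with C1qa, a chain of the recognition molecule, at 2.02 (SE 0.14, adjusted p = 4.12e-07), the protease C1s at 2.42 (SE 0.15, adjusted p = 2.71e-07) and C2 at 2.68 (SE 0.19, adjusted p = 5.98e-07). C3, the central component, stayed under the filter, at most 1.30 TPM in rat 76. Of 22 chemokines, 15 were called higher and none lower (median 1.37, 11 with size factors). Ccl2, which recruits monocytes, was low in absolute terms, 3.65 to 7.71 (median 4.79) TPM against 1.54, 1.74, 1.54 and 1.01 TPM (1.31, SE 0.16, adjusted p = 1.72e-05), next to Ccl6 (2.42, SE 0.15, adjusted p = 2.77e-07) and Pf4, platelet factor 4 (2.56, SE 0.20, adjusted p = 9.63e-07). Cxcl12, which holds stem cells in their niche, had 0.93 (SE 0.11, adjusted p = 1.38e-05) and was not called, though it was against muscle labelled sham (1.29).

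Cytokines and interferon targets were moderate. Of 28 tested interleukin and TNF mediators, 17 were called higher and none lower (median 1.08), and 2 were called with size factors. Il33, an alarmin of stromal cells, had 1.49 (SE 0.16, adjusted p = 7.48e-06). Il1b rose from 0.15, 0.50, 0.22 and 0.09 TPM to 0.75 to 2.99 (median 1.49) TPM (1.07, SE 0.17, adjusted p = 0.000125), a call that was lost without the contralateral (0.95) or the injured (0.99) muscle of rat 76. Il6 stayed under the filter, at 0 in contralateral muscles of rats 74, 75 and 76 and at most 0.57 TPM in an injured muscle. Of 36 interferon response genes, 20 were called higher and none lower (median 1.09), and 6 with size factors. For Mx1, contralateral values of 1.04, 1.19, 0.94 and 0.77 TPM stood against injured values of 1.74, 4.54 and 18.5 TPM. Mx1, an antiviral GTPase, had 1.79 (SE 0.44, adjusted p = 0.0023). Rats 76, 83 and 84 of the MMG arm held 18.5, 12.4 and 12.7 TPM, while rat 75 of the same arm was the lowest injured muscle at 1.74 TPM. Isg15, a ubiquitin-like modifier, showed the same split, with rat 75 at 8.03 TPM and the other MMG muscles at 26.04 to 36.0 TPM (1.67, SE 0.32, adjusted p = 0.000431).

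Of 19 tested T and cytotoxic lymphocyte genes, 7 were called higher and none lower (median 0.86), and 2 with size factors. Cd3e, a chain of the T cell receptor complex, was at 0.76 to 2.15 (median 1.05) TPM against 0.26, 0.20, 0.12 and 0.13 TPM and Cd8a, which marks cytotoxic T cells, at 0.97 to 3.30 (median 1.23) TPM against 0.46, 0.19, 0.33 and 0.27 TPM, and neither reached the limit (0.86, SE 0.15, adjusted p = 0.000185, and 0.94, SE 0.20, adjusted p = 0.000897). With a pseudocount of 0.1 TPM both were called (2.16 and 1.97), as they were against muscle labelled sham (1.00 and 1.01). Cd8a was also called without the contralateral muscle of rat 73 (1.00). Contralateral levels of Cd28 were 2.11, 2.87, 2.61 and 1.59 TPM and injured levels 35.1, 62.0 and 135.6 TPM. Cd28, a costimulatory receptor of T cells, had 4.22 (SE 0.31, adjusted p = 6.69e-07) and stood well above Cd3e and Cd8a in every injured muscle. Of 4 tested B and plasma cell genes, from a list under 80% complete, none was called by limma in either direction or with size factors, and the B cell marker Ms4a1 stayed under the filter, at most 0.28 TPM. All 4 had adjusted p values under 0.05, with a median of 0.61. Of 10 mast cell genes, 4 were called higher and none lower (median 0.85, 1 with size factors), among them Cpa3, a protease of their granules (1.43, SE 0.14, adjusted p = 4.03e-06), and Mcpt10 (1.72, SE 0.25, adjusted p = 6.11e-05). Of 10 neutrophil genes, 3 were called higher (against 17.6% of all genes) and none lower (median 0.84, 1 with size factors). S100a9 was called (1.23, SE 0.23, adjusted p = 0.000355), though not against muscle labelled sham (0.97), and its partner S100a8 was not (0.90, SE 0.25, adjusted p = 0.00512), although it was called without the contralateral muscle of rat 74 (1.16) and with a pseudocount of 0.1 TPM (1.29).

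Nerve, fat, vessel and blood genes varied between muscles. Of 13 tested Schwann cell and nerve genes, 6 were called higher and none lower (median 0.78, 4 with size factors). S100b, a protein of Schwann cells, had 1.65 (SE 0.16, adjusted p = 3.06e-06), Cnp, an enzyme of myelinating cells that is also made elsewhere, 2.32 (SE 0.19, adjusted p = 1.14e-06), and Gdnf, a growth factor for motor axons, 1.17 (SE 0.25, adjusted p = 0.00111). Of 18 adipocyte genes, 7 were called higher and none lower (median 0.59, 3 with size factors). Adipoq, adiponectin, was at 5.46 to 17.02 (median 8.66) TPM against 2.25, 4.45, 2.79 and 1.63 TPM (1.49, SE 0.25, adjusted p = 0.000174), Plin1, which coats lipid droplets, had 1.11 (SE 0.24, adjusted p = 0.000926) (0.97 and not called without the injured muscle of rat 73), and Cidea, a lipid droplet protein of brown fat, had 2.72 (SE 0.22, adjusted p = 1.34e-06). Of 22 endothelial genes, 5 were called higher and none lower (median 0.65, 2 with size factors), near the 17.6% of all genes called higher (8.29% with size factors). Pecam1 had 1.08 (SE 0.14, adjusted p = 2.8e-05) (0.99 and not called over the 4 rats with both muscles or with a rat-number covariate) and Cdh5 had 0.84 (SE 0.13, adjusted p = 7.95e-05), the latter not called. Of 7 erythrocyte genes, 3 were called higher and none lower (median 0.97), none with size factors. Hbb, a globin with near-identical copies, ranged from 1002 to 4184 TPM in injured muscle and overlapped the contralateral values of 595, 1519, 916 and 1238 TPM (1.05, SE 0.35, adjusted p = 0.014), and its call was lost without the contralateral muscle of rat 73 (0.81) or 75 (0.96) or the injured muscle of rat 73 (0.88) or 84 (0.95). It was also not called in the model of all non-running groups (adjusted p = 0.155 by limma) or against muscle labelled sham (0.60). All 5 ribosomal RNA genes were called higher (median 1.77, 3 with size factors), with no overlap between groups in 2 (60.9% of all genes). Rn28s (1.30, SE 0.50, adjusted p = 0.0291) lost its call without the filter on low values (adjusted p = 0.0737 by limma), in the model of all non-running groups (adjusted p = 0.14) and without the contralateral muscle of rat 74 (1.22), 75 (1.26) or 76 (1.30). Rn45s (1.16, SE 0.27, adjusted p = 0.00195) lost it without the injured muscle of rat 76 (0.97). Against muscle labelled sham, Rn18s (1.14, adjusted p = 0.0662 by limma), Rn28s (0.66) and Rn45s (0.77) were not called. Of the epidermis and hair genes, from a list under 80% complete, 1 was tested and none called (log2 fold change 0.42).

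Of 23 tested activity-induced early genes, 8 were called higher and 1, the nuclear receptor Nr4a1, lower (median 0.79, 3 higher and 1 lower with size factors). Myc had 1.75 (SE 0.22, adjusted p = 2.06e-05) and Egr1 1.36 (SE 0.34, adjusted p = 0.00252), the latter not called against muscle labelled sham (0.59) or with size factors (0.89). Fos had 1.01 (SE 0.28, adjusted p = 0.00503), with contralateral values of 1.90, 5.06, 1.53 and 3.54 TPM and injured values of 4.97 to 13.7 (median 5.65) TPM that overlapped, and its direction turned (-0.62) when muscle labelled sham took the place of the contralateral muscle. Its call was also lost without the contralateral muscle of rat 73 (0.91) or 75 (0.76) or the injured muscle of rat 76 (0.88) or 83 (0.94), and that of Nr4a1 (-1.07, SE 0.23, adjusted p = 0.00101) without the contralateral muscle of rat 73 (-0.98) or the injured muscle of rat 76 (-0.99), 81 (-0.999) or 82 (-0.98), and over the 4 rats with both muscles, with or without a block, or with a rat-number covariate (-0.82). Of 15 circadian clock genes, none was called by limma in either direction, 9 had an adjusted p under 0.05 (6 higher and 3 lower), and 3 were called lower with size factors. The median was 0.16, and Arntl and Dbp, which peak at opposite times of day, had 0.33 (SE 0.18, adjusted p = 0.112) and 0.16 (SE 0.10, adjusted p = 0.144).

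Both arms showed the injury difference. In the 4-group model, 1531 genes (14.8%) were called between injured and contralateral muscle in the NoRepair arm and 2168 (21%) in the MMG arm, and 1475 were called in both in the same direction (96.3% of the first and 68.0% of the second). Median log2 fold changes over all genes were 0.40 and 0.51. Without the injured muscle of rat 76 the arms gave 1532 and 1726 calls and medians of 0.40 and 0.42. The arms share no muscle, and each set 4 injured against 2 contralateral muscles. Sln had 6.39 in the NoRepair arm and 7.57 in the MMG arm, Myog 3.94 and 4.20, Col1a1 4.03 and 4.70, and Tnmd 2.88 and 4.22. The difference between the arms' injury differences was called for none of the 10347 genes by limma (0%, smallest adjusted p 0.9998, 1.01% of genes at an unadjusted p under 0.05). Nor was any gene called between grafted and non-repaired injured muscle (0%, smallest adjusted p 0.941, 190 genes at an unadjusted p under 0.05) or between contralateral muscles of the arms, 2 against 2 (0%, smallest adjusted p 0.0796, 56 genes).

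These counts of 0 do not show that grafted and non-repaired muscle were alike, since the intervals of the difference were wide. The log2 difference between grafted and non-repaired injured muscle was 0.10 (95% interval -0.69 to 0.88) for Myog, 0.05 (95% interval -1.20 to 1.30) for Myh3, 0.14 (95% interval -0.36 to 0.63) for Pax7, 0.22 (95% interval -0.68 to 1.12) for Col1a1 and 0.27 (95% interval -0.15 to 0.68) for Tgfb1, each interval holding 0. The 3 smallest unadjusted p values belonged to Gbp2, an interferon-induced GTPase (0.77, 95% interval 0.40 to 1.15, unadjusted p = 0.000728), Mir3555, a microRNA hairpin (-2.06, 95% interval -3.08 to -1.04, unadjusted p = 0.000909), and RT1-N2, a class I gene with near-identical relatives (0.42, 95% interval 0.20 to 0.63, unadjusted p = 0.00112), all 3 at an adjusted p of 0.941. Gbp2 was at 15.4, 27.9, 25.3 and 18.7 TPM in the injured muscles of rats 75, 76, 83 and 84 and at 11.8, 13.1, 11.4 and 11.9 TPM in those of rats 73, 74, 81 and 82. The arms did not overlap, but Gbp2 was picked for the smallest unadjusted p of this contrast, so this adds no support. The injured muscle of rat 75 was the lowest grafted muscle for Gbp2, Mx1 and Isg15, so leaving it out raises the graft difference of these genes by construction. Without it 3 symbols were called higher in grafted than in non-repaired injured muscle by limma: Isg15 (log2 difference 1.29, adjusted p = 0.0187), Mx1 (1.70, adjusted p = 0.0187) and the hairpin Mir219-1 (2.54, adjusted p = 0.000289). With all muscles none of them was called, so these calls are no support for a graft effect. Without the injured muscle of rat 84, Hmgn5, a nucleosome-binding protein (1.55, adjusted p = 0.0302), and Mir3555 (-2.58, adjusted p = 0.0387) were called, and without that of rat 81 the hairpin Mir26b (-1.59, adjusted p = 0.000727).

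**Figure D4:**
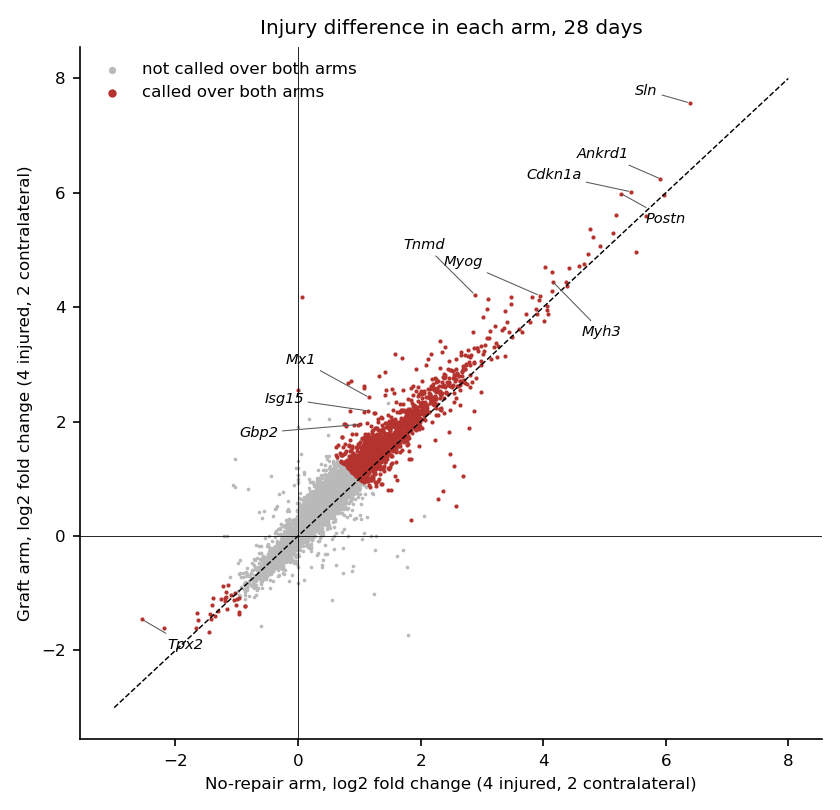
Log2 fold change (injured minus contralateral) of each tested gene in the NoRepair arm (x axis) and in the MMG arm (y axis), each from 4 injured and 2 contralateral muscles, with equal differences on the dashed line and genes called over both arms in red. Points follow the line, from Tpx2 at the lower left to Sln at the upper right, and no gene was called for a difference between the arms.

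Set beside 14 DPI, fewer genes were called at 28 DPI, and most of them had also been called earlier. In 1 model of 24 muscles, 8 injured and 4 contralateral at each time, 2691 genes (25.4%, 39 of them or 0.368% lower) were called at 14 DPI and 1851 at 28 DPI, and 1751 were called at both times in the same direction, 65.1% of the first and 94.6% of the second. The difference between the times was called for 18 genes (0.17%), with 1896 at an unadjusted p under 0.05. It was lower at 28 DPI for 14 of them (0.132%). Csrp2, a LIM protein of smooth muscle and stellate cells, went from a log2 fold change of 2.84 to 1.23 (adjusted p = 0.0311 for the change), Mdk, the heparin-binding growth factor midkine, from 3.22 to 1.80 (adjusted p = 0.0285), and Fbn2, the fibrillin of developing tissue, from 2.15 to 0.73 (adjusted p = 0.0367). Il1rl1, the receptor of Il33, went from 2.02 to 0.67 (adjusted p = 0.00703), Plat, the tissue plasminogen activator, from 1.59 to 0.49 (adjusted p = 0.00367), and Gja1, the gap junction protein connexin 43, from 3.31 to 1.98 (adjusted p = 0.0421). The others were Mir770, Ear11, Tmsbl1, Prss46, Lrrc17, Efemp2, Nrk and Ddah1.

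The injury difference was higher at 28 DPI for 4 genes (0.0377%). Anxa8 was at 0, 0.03, 0.03 and 0.07 TPM in the contralateral muscles and at 3.24, 5.46 and 17.6 TPM in the injured muscles. Anxa8, an annexin, went from 0.90 at 14 DPI to 2.78 at 28 DPI (adjusted p = 0.00703). For Calml3, contralateral values of 0.07, 0.38, 0.13 and 0.13 TPM stood against injured values of 3.34, 7.83 and 37.5 TPM. Calml3, a calmodulin-like protein, went from 0.63 to 3.21 (adjusted p = 0.0285). Gsn, gelsolin, which severs actin filaments, stood at 768 to 1226 (median 869) TPM in injured and 433, 422, 460.0 and 395 TPM in contralateral muscle at 28 DPI, and went from 0.01 to 1.11 (adjusted p = 0.00888). Gsta1, a glutathione transferase, went from 0.58 to 1.599 (adjusted p = 0.00502). The median of the macrophage list was 2.03 at 14 DPI and 1.75 at 28 DPI, that of the fibrillar collagens 3.35 and 2.66, that of the developmental sarcomere 2.09 and 1.78, and that of the junction genes 1.39 and 1.20, against medians over all genes of 0.57 and 0.46. The medians of the adipocyte list were 0.24 and 0.59 and those of the erythrocyte list 0.10 and 0.97, and no gene of these 6 lists was called for a change between the times. The ribosomal RNA genes, a measure of library makeup, had a median of 0.05 with none called at 14 DPI and of 1.77 with all 5 called at 28 DPI. None of them was called for the change, and their part in the differences between the times was not tested.

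**Figure D5:**
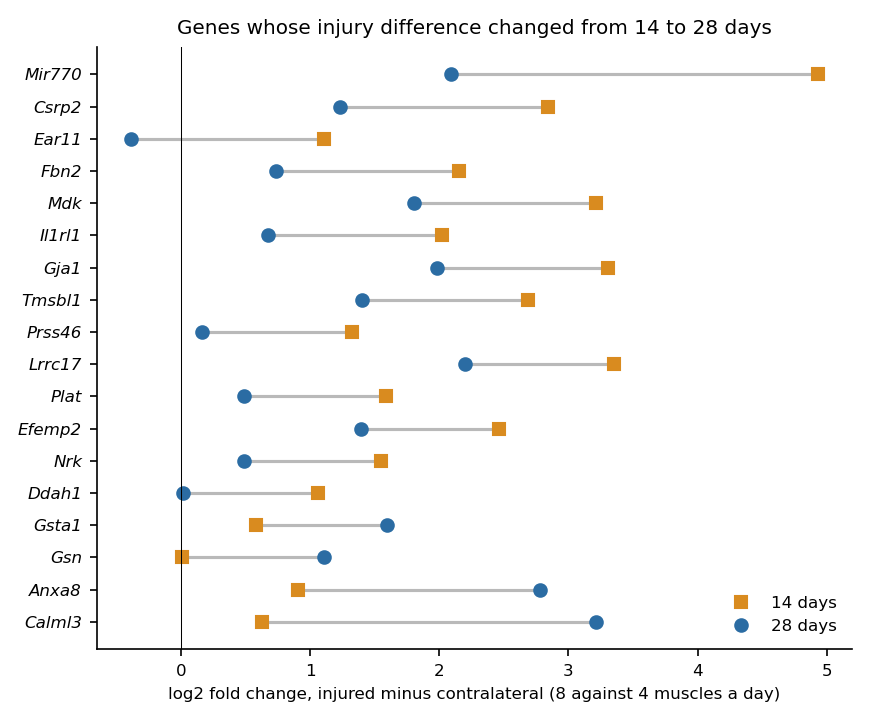
Log2 fold change (injured minus contralateral) at 14 DPI (orange squares) and 28 DPI (blue circles) of the 18 genes whose injury difference was called between the times, from 8 injured and 4 contralateral muscles at each. Mir770, at the top, fell furthest, from 4.93 to 2.09, and Calml3, at the bottom, gained most, from 0.63 to 3.21.

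Many microRNA hairpin symbols were among the genes called higher. Of 123 tested, 39 were called higher (31.7%, against 17.6% of all genes) and none lower, and 27 of the 39 were listed at 0 in 1 or more muscles. These values are TPM of short hairpin records in libraries of longer RNA, so they are not levels of mature microRNAs, and reads of a host transcript cannot be told apart. Of the called symbols, 33 have a mature entry in RefSeq, and 5 are shown, chosen after their values were seen, because they include the muscle microRNA miR-133b, the fibrosis-associated miR-21 and 3 members of the let-7 family. Sequences are of the GRCr8 build, 5′ to 3′, with the seed (bases 2 to 8) in capitals.
miR-133b-3p: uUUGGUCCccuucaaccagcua
miR-21-5p: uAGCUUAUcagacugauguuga
let-7b-5p: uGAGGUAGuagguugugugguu
let-7d-5p: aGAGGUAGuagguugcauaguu
let-7i-5p: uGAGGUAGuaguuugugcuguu
The 3 let-7 members share 1 seed, GAGGUAG, and the other two have seeds of their own. Contralateral levels of Mir133b were 15.3, 26.1, 15.2 and 25.7 TPM and injured levels 72.3, 132.4 and 220.5 TPM, a log2 fold change of 2.68 (SE 0.28, adjusted p = 6.22e-06). Mir21 was at 0, 2.60, 2.67 and 3.0 TPM contralaterally and at 6.55 to 27.03 (median 13.1) TPM in injured muscle (2.33, SE 0.39, adjusted p = 0.000159). Mirlet7b, Mirlet7d and Mirlet7i had 1.95 (SE 0.20, adjusted p = 5.01e-06), 2.35 (SE 0.41, adjusted p = 0.000219) and 1.89 (SE 0.64, adjusted p = 0.0159), and the values of Mirlet7i overlapped between groups, with a call that was lost without the contralateral muscle of rat 73 (1.42, adjusted p = 0.0749) or 75 (1.46, adjusted p = 0.0733). In a list of let-7 and muscle microRNA transcripts added after values were seen, 9 of 13 tested were called higher and none lower (median 1.79, and 1.38 with size factors).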

How the data were processed

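RNA was extracted from homogenized TA muscle and sequenced. The authors quantified transcripts with kallisto against the rat genome and deposited 1 table of TPM values per gene symbol, without counts. The study's methods give an average depth over its libraries, and the depth of single libraries was not used here. The table as used here holds 16181 symbols and ends at Tubb3, and symbols after it are not analysed here. Groups came from the labels, and 9 of the 138 libraries of the series were left unassigned because their labels conflict.

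Values of log2(TPM + 1) were fitted with limma 3.58.1 (R 4.3.3, statmod 1.5.0; empirical Bayes with an intensity trend, Benjamini-Hochberg adjustment) over 12 muscles with injury and repair as terms, after keeping genes with a mean above 1 TPM in at least 1 group. Fold changes on this scale understate the change of low genes. Arms were compared in a 4-group model of the same muscles, and times in a model of 24 muscles at 14 and 28 DPI, which also share 1 estimate of spread. Library measures were compared by an exact two-sided permutation test. Plots were made with matplotlib 3.10.9 and summaries with pandas 2.3.3, scipy 1.17.1 and numpy 2.4.6 in Python 3.11.15. The scripts were tested on simulated data.

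The comparison, its gene lists and the named genes were chosen with earlier results of these data known. Genes were named if they were among the 8 highest or 8 lowest called genes without overlap, the anchors or the 4 leading calls of a list, named in the study's text, or among the 5 highest or lowest called differences of the other contrasts (with none called, the 3 smallest p values). Further members of a list, the microRNAs printed, H19, and Il1rl1, Gja1, Plat, Tmsbl1, Prss46, Lrrc17 and Efemp2 were chosen after their values were seen. A few genes that this rule names are not reported here.

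Rat numbers pair the 4 contralateral muscles with injured muscles of the same animals: deviations of the same rat from its group and arm means correlated at 0.20, 0.09, 0.08 and -0.03, and the block correlation in the fit was 0.01. Alternatives were a pseudocount of 0.1 TPM, no filter, size factors, no trend, the rat as a random or fixed block, no covariate, a rat-number covariate, other call limits, other samples in the fit or as the reference, and each muscle left out in turn.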

Additional observations from a re-analysis of the deposited data

Results flagged for a closer look

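For each of the 221 genes named here and 4 library measures, the gap between the highest or lowest muscle of a group and its nearest neighbour was set against the range of the group (Dixon's test). Of 450 gaps tested, 57 passed the 95% limit, 47 of them in injured muscle and 10 in contralateral muscle. Chance passes about 1 group in 20 for independent, normal values, and genes of the same muscles are not independent. The injured muscle of rat 76 made up 37 of the 57. Its size factor was 1.458, against 1.038 to 1.165 in the other 7 injured muscles. The gaps were taken on TPM without size factors, so these 37 are not separate results. The injured muscle of rat 76 stood below the other 7 in the share of TPM in the fast-twitch sarcomere list (20.9%) and the share in the 10 most abundant genes (21.1%) and in the TPM of Acta1 (25692) and Mylpf (32502). It stood above them in the TPM of Anxa8 (17.6), Arntl (9.90), C1qa (126.1), C3 (1.30), Calml3 (37.5), Cd74 (388), Cdkn1a (853), Cdkn1c (91.8), Chrne (100.9) and Cilp (266). The same held for Cnp (95.6), Cox8a (409), Cpa3 (17.5), Erbb2 (40.4), Gadd45a (595), Id2 (28.6), Id3 (73.03), Igfbp5 (684), Myc (13.8) and Myod1 (142.8). It was also apart at the top for Myog (354), Pax7 (5.62), RT1-Ba (126.8), RT1-Da (144.2), Rapsn (46.1), Rn18s (5346), S100a4 (1201), Scx (75.5), Smad2 (15.4) and Smad3 (79.4). Further high values in this muscle were those of Tgfb1 (41.1), Tmem8c (52.7) and Trim63 (396). 

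Among injured muscles, that of rat 73 stood below its group in Sfrp4 (52.1 TPM). Among injured muscles, that of rat 75 stood above its group in Pfkfb3 (109) and below it in Cdh5 (30.9 TPM). Among injured muscles, that of rat 81 stood above its group in Myh1 (7705) and below it in P4ha1 (23.6 TPM). Among injured muscles, that of rat 82 stood above its group in Apoe (3709), Gpnmb (490.1) and Lilrb4 (107.4 TPM). Among injured muscles, that of rat 84 stood above its group in Ms4a1 (0.28) and Mt3 (70.9 TPM). The contralateral muscle of rat 73 stood above its group in Ankrd1 (8.99), Clrn1 (0.05), Dkk3 (0.41), Il6 (0.10), Mmp12 (0.03), Pygb (2.13) and Rn28s (338) and below it in Mir21 (0 TPM). The contralateral muscle of rat 75 stood below its group in RT1-N2 (1.48 TPM). The contralateral muscle of rat 76 stood above its group in Lilrb4 (0.96 TPM). Several of these values are close to 0.

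The injury difference itself changed between 14 and 28 DPI in 18 genes, by a test of that change in limma (log2 difference of 28 minus 14 DPI, with its adjusted p). It was smaller at 28 DPI for Mir770 (-2.84, 0.0265), Csrp2 (-1.61, 0.0311), Ear11 (-1.49, 0.0285), Fbn2 (-1.42, 0.0367), Mdk (-1.41, 0.0285), Il1rl1 (-1.35, 0.00703) and Gja1 (-1.33, 0.0421). The same direction held for Tmsbl1 (-1.29, 0.0265), Prss46 (-1.16, 0.02), Lrrc17 (-1.15, 0.0311), Plat (-1.09, 0.00367), Efemp2 (-1.07, 0.0488), Nrk (-1.06, 0.0285) and Ddah1 (-1.04, 0.0172). It was larger for Gsta1 (1.02, 0.00502), Gsn (1.10, 0.00888), Anxa8 (1.87, 0.00703) and Calml3 (2.58, 0.0285). With size factors 36 genes were called, 14 of these among them.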

How the results depend on the processing

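The number of genes called between injured and contralateral muscle (1848, 1818 higher and 30 lower) moved most with the call limits, the pseudocount, the scale and the reference muscles: a pseudocount of 0.1 TPM gave 2820 (2776 higher), size factors 1119 (846 higher and 273 lower), the adjusted p alone 8157 (7287 higher and 870 lower) and a log2 limit of 2 gave 311 (310 higher and 1 lower). Leaving out a muscle gave 1625 (without the injured muscle of rat 76) to 1984 (without that of rat 75), 1604 to 1950 higher and 21 to 34 lower. The filter, trend, covariate, model and block settings gave 1820 (rat-number covariate) to 1849 (rat as a random replicate block). With the rat as a fixed block over the 4 rats with both muscles 1832 genes were called, against 1822 in the same muscles without the block, and the block changed no count of calls by more than 1.5 times. Of the listed genes, 360 were called, 722 by the adjusted p alone, 119 at a log2 limit of 2, and 333 to 374 with a muscle left out. Against muscles labelled sham in place of the contralateral ones (4 muscles, the left and right of only 2 rats at day 0, so they are not 4 independent animals), 2662 genes were called, and they held 96.4% of the 1848, while Fos turned from 1.01 to -0.62, the only gene of the text to change from a call to the other sign, 9 other genes of the text lost their call (Egr1, Hbb, Mir3555, Pfkfb3, Rn18s, Rn28s, Rn45s, S100a9 and Snrpn) and 5 gained one (Cd3e, Cd8a, Cxcl12, Hmgn5 and Pax7); the cause was not tested.

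With size factors, 177 of the 216 tested genes of the text kept their side of the limits and 8 were newly called, all lower (Ankrd23, Atp2a1, Ckm, Fbxo32, Mstn, Myh4, Pfkm and Pygm). The 31 no longer called were Acta2, Ccl2, Chrnb1, Cox8a, Cpa3, Cpt1a, Csrp2, Dcn, Efemp2, Egr1, Fbxo30, Fos, Gbp2, Gsn, Hbb, Hk1, Id3, Il1b, Il33, Mirlet7i, Myod1, Pecam1, Plin1, Pygb, Pygl, RT1-N2, Rn28s, Rn45s, S100a9, Snai1 and Tagln. With the pseudocount of 0.1 TPM no call among the 216 was lost and 7 were gained (Cd3e, Cd8a, Il1rl1, Mki67, Pax7, S100a8 and Top2a). Calls between the arms appeared with another pseudocount, with size factors or with a muscle left out. Leaving out a contralateral muscle leaves 1 in its arm, which is then assumed to vary like the other groups. The difference of injury differences was called for 1 symbol with the pseudocount of 0.1 TPM (Mir339) and for 0 to 2 with a muscle left out (Mir19b1 and Mir3546 without the contralateral muscle of rat 73, Mir219-1 without the injured muscle of rat 75). Grafted against non-repaired injured muscle gave 0 to 3, and the contralateral muscles of the arms gave 2 with the pseudocount of 0.1 TPM (Mir223 and Mir339), 1 with size factors (Mir339) and 0 to 3 with a muscle left out (Mir19b1, Mir339 and Mir3546 without the contralateral muscle of rat 73). The 18 genes that differed between 14 and 28 DPI became 10 without a filter and 36 with size factors, of which 10 and 14 were among the 18. The depth of single libraries was not used, so precision is limited by 8 and 4 muscles per group and, for contralateral muscle, by 2 rats per arm.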

Other observations

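Some genes outside every list fixed for this comparison were among the largest differences, and they are given as values, chosen after they were seen. Among imprinted genes, which are expressed from the copy of a single parent and many of which act on fetal growth, Cdkn1c, a cyclin-dependent kinase inhibitor related to p21, was at 1.98, 1.87, 1.79 and 2.0 TPM in contralateral muscle (rats 73, 74, 75 and 76) and at 27.2 to 91.8 (median 36.9) TPM in injured muscle (3.82, SE 0.24, adjusted p = 2.95e-07). Dlk1, a membrane protein of muscle and fat progenitors, had a log2 fold change of 3.36 (SE 0.54, adjusted p = 0.000118) and Mest, an enzyme-like protein of mesodermal tissue, of 2.96 (SE 0.37, adjusted p = 2.25e-05). Snrpn, a splicing protein gene of the same kind, was called lower, at 3.01 to 5.6 (median 4.74) TPM against 9.51, 10.3, 9.08 and 10.6 TPM (-1.02, SE 0.14, adjusted p = 5.29e-05), close to the fold limit, and its call was lost (-0.99 to -0.95) without the contralateral muscle of rat 74 or 76 or the injured muscle of rat 73, 76 or 81, or against muscle labelled sham (-0.92). The groups did not overlap for any of these 4 genes.

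The 3 metallothionein genes in the table, which bind zinc and copper and respond to metals and stress, were all called higher: Mt1 at 3.61 (SE 0.31, adjusted p = 1.51e-06), Mt2A at 2.75 (SE 0.26, adjusted p = 2.93e-06) and Mt3 at 2.71 (SE 0.38, adjusted p = 4.32e-05). Eef1a1 was at 297, 298, 316 and 293 TPM in the contralateral muscles and at 1286, 1693 and 3394 TPM in the injured muscles, as the lowest, the median and the highest of 8. Eef1a1 encodes the elongation factor of most tissues and of embryonic muscle, and its difference was 2.59 (SE 0.21, adjusted p = 1.22e-06). Eef1a2, the form that replaces it in adult muscle and has a closely related sequence, had 0.02 (SE 0.07, adjusted p = 0.844) and was not called. For Apoe, contralateral values of 98.7, 93.1, 97.4 and 96.0 TPM stood against injured values of 816, 1198 and 3709 TPM, in the same order. Apoe, the lipid carrier of macrophages and other cells, had 3.77 (SE 0.33, adjusted p = 1.93e-06). Emb, embigin, a membrane glycoprotein known to rise in denervated muscle, went from 0.65, 0.77, 0.68 and 0.69 TPM to 35.5 to 150.3 (median 59.3) TPM (5.22, SE 0.33, adjusted p = 2.98e-07). Contralateral levels of Erbb2 were 1.03, 0.90, 1.02 and 0.92 TPM and injured levels 10.9, 14.1 and 40.4 TPM. Erbb2, a neuregulin receptor subunit of fibres and Schwann cells, had 3.10 (SE 0.26, adjusted p = 1.34e-06) and no overlap between groups.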
